A study of Mus musculus with 33 samples.

Results

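The genes described here are 10 genes of blood vessel endothelium and of vascular adhesion: Pecam1, Cdh5, Cldn5, Kdr, Eng, Plvap, Vwf, Selp, Icam1 and Vcam1. They were chosen by symbol, and every probe set annotated to 1 of these symbols was taken, which gave 16 of the 45037 probe sets on the arrays. Of these, 13 lay above the array's own median signal on 3 or more arrays, and all 10 genes kept at least 1 such probe set among the 13463 genes tested. The 3 probe sets that did not pass were 1 of Cdh5 and 2 of Selp. Each gene is represented by its passing probe set with the highest mean, and levels of different probe sets are not compared, since a probe's brightness depends on its own sequence.

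The 33 arrays held RNA from the thymus of male C57BL/6J mice aged 4 to 6 weeks, with no treatment in the labels. Microdissected tissue gave 5 groups: subcapsular, central and perimedullary cortex with 3 arrays each, and whole cortex and whole medulla with 7 arrays each. Sorting gave the other 2 groups with 5 arrays each: cortical thymocytes, gated as CD3-/lo CD45+ cells carrying CD90 or CD117, and medullary thymocytes, gated as CD3hi CD45+. The arrays are labelled biological replicates, but regions are not tied to animals, so p-values measure the spread between arrays, some of which may share a mouse. RNA came from tissue with RNAqueous Micro and from sorted cells with RNeasy Mini columns, and these kits cannot be told apart from the difference between tissue and cells.

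Endothelial cells line vessels and are held together by junction proteins, among them PECAM-1, VE-cadherin and claudin-5. They present selectins and immunoglobulin-like adhesion molecules to leukocytes. In the thymus, progenitors enter and mature T cells leave mainly through vessels near the border of cortex and medulla. Several of these genes are also used elsewhere: Icam1 and Pecam1 by leukocytes, Eng by macrophages, Vwf and Selp by megakaryocytes and platelets, and Vcam1 by stromal cells.

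Signals are the deposited linear values, given as mean ± SD over the arrays of a group. Median signals of the arrays lay between 71.9 and 163 and were highest in whole medulla. In 13 arrays, 0.1% of the probe sets lay above 42000, here called a wide upper tail: whole cortex 1 to 5, whole medulla 1 to 5 and medullary thymocytes 1 to 3. The dissection labels were borne out by their markers: Aire, a regulator of medullary epithelium, was at 2333 ± 231 in whole medulla and 25.3 ± 24.2 in whole cortex. Psmb11, a proteasome subunit of cortical epithelium, was at 2763 ± 498 in whole cortex and 120.0 ± 23.1 in whole medulla. Aire reached 122 ± 21.7 in perimedullary cortex, above its 42.1 ± 22.8 in central cortex.

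**Figure D1:**
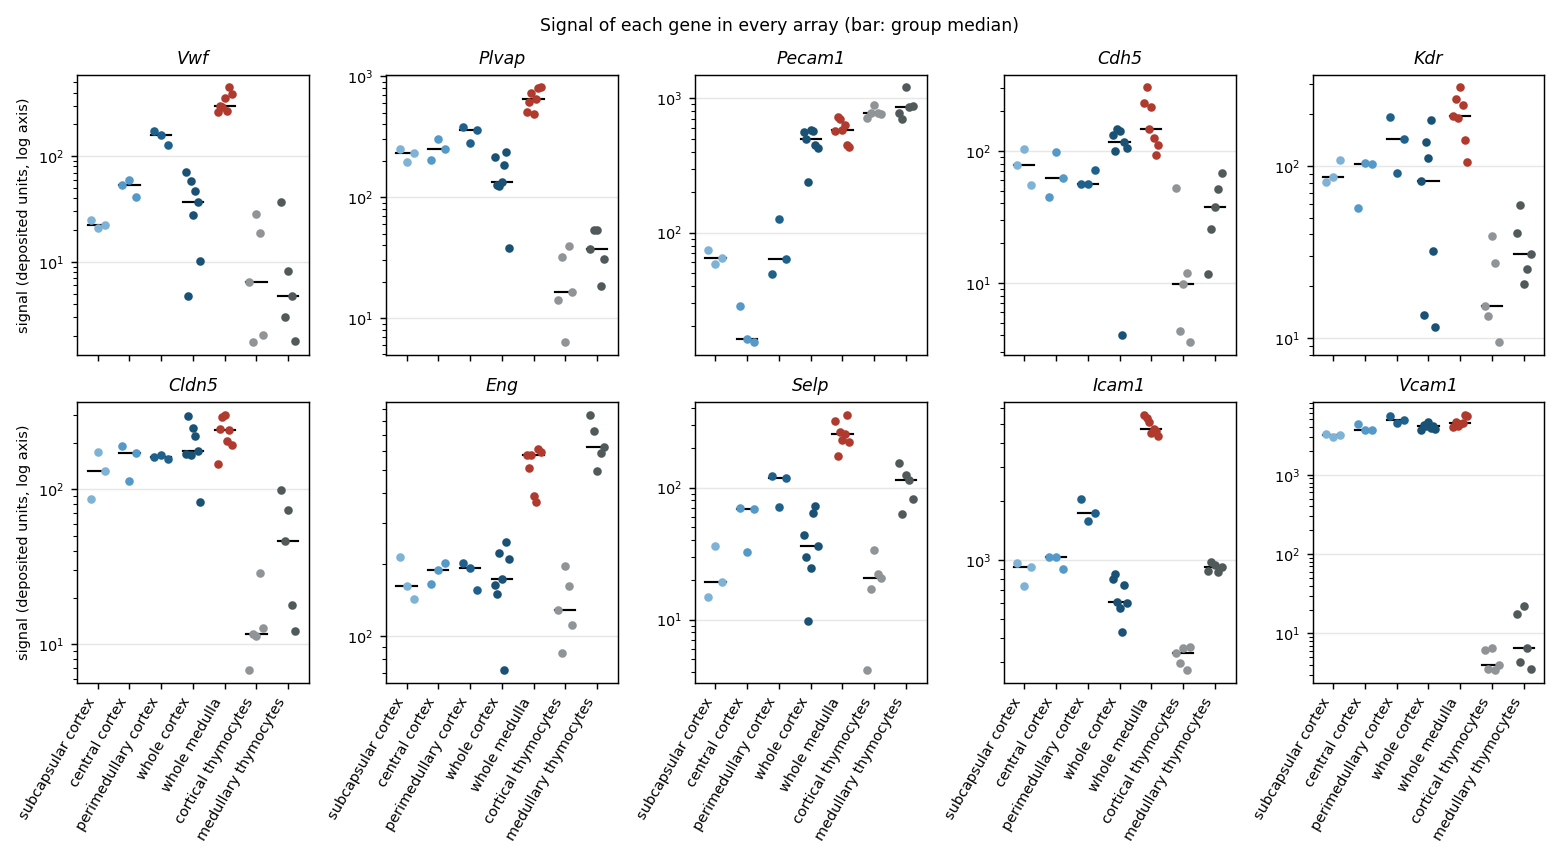
Signal of the 10 genes in each of the 33 arrays (log axis, deposited linear units, axis range set per gene), with 1 point per array and a bar at the group median. Icam1, Vwf, Selp and Plvap were highest in whole medulla in every array. Pecam1 was highest in sorted thymocytes, where Vcam1 did not exceed 22.5 in its representative probe set.

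The first comparison set whole medulla against whole cortex, the 2 main compartments of the organ. A gene was called when limma's Benjamini-Hochberg adjusted p over all genes was below 0.05 and the absolute log2 fold change was at least 1. Of the 10 genes, 6 were called higher in medulla and 0 lower, against 24.0% of all genes called, 18.7% higher and 5.39% lower. The 6 were Icam1, Vwf, Selp, Plvap, Eng and Kdr, with mean signals 7.41, 9.07, 6.47, 4.36, 2.92 and 2.42 times those of cortex. The 3 genes of endothelial junctions and Vcam1 did not pass. Over the 10 genes the median difference was 1.37 on the log2 scale, beside 0.11 over all genes. In such tissue RNA, more cells of a type and more RNA per cell cannot be told apart.

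Of the junction genes, Pecam1, an immunoglobulin-like molecule at contacts between endothelial cells, had signals from 239 to 580.0 in whole cortex (median 501) and from 433 to 728 in whole medulla (median 583). The log2 difference was 0.31 (SE 0.16, adjusted p = 0.10). Cdh5 encodes VE-cadherin, the adherens junction cadherin of endothelium. It ranged from 4.00 to 147 in cortex (median 117) and from 93.1 to 303 in medulla (median 147), with a log2 difference of 0.68 (SE 0.31, adjusted p = 0.054). Cldn5, a tight junction protein, ranged from 82.9 to 296 in cortex (median 176) and from 145 to 302 in medulla (median 241). Its log2 fold change was 0.27 (SE 0.23, adjusted p = 0.34). For each of these genes the 2 groups overlapped, and the difference did not pass the test.

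Both receptors were called. Kdr, the main signalling receptor for VEGF-A, ranged from 11.6 to 186 in cortex (median 81.9) and from 105 to 287 in medulla (median 194). These groups overlapped, the log2 fold change was 1.28 (SE 0.30, adjusted p = 0.00034), and with quantile normalization between arrays it fell to 0.95 and was no longer called. Eng, a co-receptor for TGF-beta family ligands, ranged from 71.9 to 249 in cortex (median 174) and from 365 to 613 in medulla (median 576). Here the groups did not overlap, and the log2 fold change was 1.46 (SE 0.18, adjusted p = 1.1e-08). A second probe set of Eng gave 1.59 (SE 0.22).

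Plvap forms the diaphragms of fenestrae and caveolae, and Vwf is the clotting glycoprotein stored in the secretory granules of endothelium. Plvap ranged from 37.8 to 235 in cortex (median 134) and from 489 to 810.4 in medulla (median 653), a difference of 2.04 on the log2 scale (SE 0.22, adjusted p = 4.7e-10). Vwf ranged from 4.72 to 70.4 in cortex (median 36.9) and from 265 to 449 in medulla (median 298), a difference of 2.59 (SE 0.23, adjusted p = 6.7e-12). Neither gene's groups overlapped. Vwf exceeded the array median in 7 of 7 medulla and 3 of 3 perimedullary arrays and in 0 arrays of the other groups, so it entered the tests only through the groups in which it is high. The same holds for Selp, which did so in 7 of 7 medulla, 2 of 3 perimedullary and 3 of 5 medullary thymocyte arrays and in 0 arrays of the other groups.

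The adhesion molecules split. Selp, the P-selectin that tethers rolling leukocytes, ranged from 9.82 to 73.1 in cortex (median 36.4) and from 173 to 355 in medulla (median 255), a log2 difference of 2.15 (SE 0.22, adjusted p = 1.4e-10). Icam1, a ligand of leukocyte integrin LFA-1, ranged from 425 to 846 in cortex (median 606) and from 4329 to 5549 in medulla (median 4692). Its means were 656 ± 149 and 4862 ± 467, a log2 difference of 2.87 (SE 0.11, adjusted p = 2.9e-22), and the lowest medulla array stood above every cortex array for both Selp and Icam1. Vcam1, a ligand of the alpha-4 integrins, was strong in both compartments, from 3679 to 4674 in cortex (median 4095) and from 3993 to 5694 in medulla (median 4507). Its log2 fold change was 0.20 (SE 0.10, adjusted p = 0.090), and its other 2 passing probe sets gave -0.14 and 0.24.

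The same 6 genes were called among arrays with a wide upper tail and among arrays without one. Among the wide arrays (5 per group) their log2 fold changes were 2.94 for Icam1, 2.35 for Vwf, 2.22 for Selp, 1.78 for Plvap, 1.52 for Eng and 1.13 for Kdr. Among the other arrays (2 per group) they were 2.68, 3.21, 1.96, 2.68, 1.31 and 1.66 in the same order. The difference of Cdh5 was 0.99 (adjusted p = 0.053) among the wide arrays and -0.10 (adjusted p = 0.84) among the others, and that of Vcam1 was 0.07 and 0.50 (adjusted p = 0.0014 in the latter).

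Sorted thymocytes gave the same compartment comparison in cells gated on leukocyte antigens. Of the 10 genes, Eng, Selp and Icam1 were called higher in medullary than in cortical thymocytes and 0 lower, against 7.69% of all genes called higher and 6.31% lower. Signals of Eng were 852, 725, 493, 586 and 623 in medullary and 129, 85.1, 196, 163 and 111 in cortical thymocytes. All medullary arrays lay above all cortical arrays, and the log2 fold change was 2.08 (SE 0.21, adjusted p = 3.1e-10), with 1.68 (SE 0.26) in its second probe set. Selp was at 152, 63.3, 124, 115 and 81.6 in medullary and at 4.17, 17.1, 33.5, 22.2 and 20.7 in cortical thymocytes, again without overlap (log2 fold change 1.53, SE 0.26, adjusted p = 7.8e-06).

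Icam1 was at 882, 977, 941, 872 and 923 in medullary thymocytes and at 332, 295, 352, 273 and 357 in cortical thymocytes. The groups did not overlap, and the log2 fold change was 1.45 (SE 0.13, adjusted p = 7.5e-12). Of the other 7 genes, Vwf had a difference of -0.04 (SE 0.28, adjusted p = 0.92) and Plvap of 0.45 (SE 0.26, adjusted p = 0.17). Cldn5 had a difference of 0.79 (SE 0.28, adjusted p = 0.022), below the required fold, and with a smaller offset of 6.55 it reached 1.22 and was called.

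The difference between these compartment differences was tested as an interaction, for which 15.0% of all genes were called, 12.8% positive and 2.22% negative. It was called for Vwf at 2.63 (SE 0.36, adjusted p = 4.6e-07), Plvap at 1.59 (SE 0.34, adjusted p = 0.00039) and Icam1 at 1.42 (SE 0.17, adjusted p = 2.1e-08). For these 3 genes the medulla stood further above the cortex in tissue than in sorted cells. Vwf and Plvap, however, exceeded the array median in 0 of 5 arrays of each thymocyte group. In cortical and medullary thymocytes their mean signals were 11.5 and 10.9 for Vwf and 21.7 and 38.6 for Plvap. With thymocyte signals this close to the floor, their interactions say little beyond the tissue difference. For Eng the interaction was -0.63 (SE 0.28, adjusted p = 0.089) and for Selp 0.62 (SE 0.34, adjusted p = 0.18), so for them the test did not tell the tissue and thymocyte differences apart. Comparisons of tissue with thymocytes share arrays with those above.

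**Figure D2:**
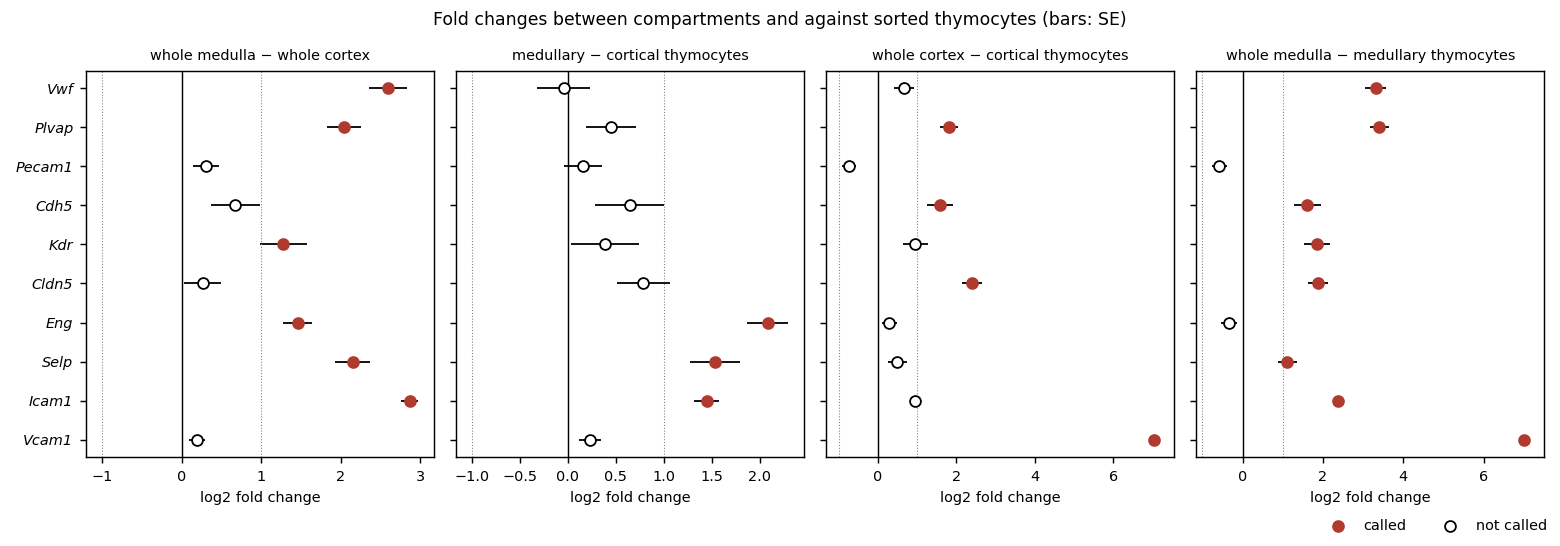
Log2 fold changes of the 10 genes (points, bars: SE of the limma fit) in 4 comparisons, filled where called, with dotted lines at 1 and -1 and an axis range set per panel. Vwf, Plvap and Icam1 rose in medullary tissue, with smaller differences between the sorted thymocyte groups. In its representative probe set Vcam1 was about 7 log2 units above thymocytes in both tissues.

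Tissue was next set against the thymocytes sorted from the same compartment. In whole medulla against medullary thymocytes, 8 of the 10 genes were called higher and 0 lower, against 19.5% of all genes called higher and 1.23% lower. Vcam1, Plvap, Vwf, Cldn5, Kdr and Cdh5 (representative probe sets) exceeded the array median in 0 of 5 arrays of each thymocyte group. They entered the tests only through tissue arrays, in which they are higher. Over all genes the 166 lower calls became 328 under quantile normalization, beside 2229 higher instead of 2622. Vcam1 led with a log2 fold change of 7.01 (SE 0.11). Its signals in medullary thymocytes were 17.5, 4.40, 22.5, 6.49 and 3.53, far below its lowest medulla array at 3993. Its other 2 probe sets gave smaller log2 fold changes, 3.69 (SE 0.21) and 3.63 (SE 0.22).

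Plvap at 3.40 (SE 0.24) and Vwf at 3.31 (SE 0.26) have no order between them: Vwf lay below the offset of 26.2 in 4 of 5 medullary thymocyte arrays, and the ratios of mean signals were 17.0 for Plvap and 30.3 for Vwf. Also called were Icam1 at 2.37 (SE 0.12), Cldn5 at 1.88 (SE 0.26) and Kdr at 1.85 (SE 0.33). Cdh5 at 1.61 (SE 0.34) and Selp at 1.11 (SE 0.24) were lower, and the call of each depended on the arrays or scaling used. Cdh5 was at 0.58 (adjusted p = 0.22) without the wide arrays, and Selp at 0.80 under quantile normalization and at 0.98 without medullary thymocyte array 2. The Cdh5 probe set that did not pass exceeded the array median in 0 of 33 arrays. It was at 39.7 ± 27.9 in whole medulla and 37.0 ± 13.5 in medullary thymocytes, and so did not show the difference. Eng had a difference of -0.33 (SE 0.20, adjusted p = 0.17): its 656 ± 138 in medullary thymocytes and 518 ± 102 in whole medulla overlapped. Its second probe set gave 0.30 (SE 0.24).

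In whole cortex against cortical thymocytes, 4 of the 10 genes were called higher and 0 lower, against 9.64% of all genes higher and 1.52% lower. They were Vcam1 at 7.04 (SE 0.11), Cldn5 at 2.40 (SE 0.26), Plvap at 1.81 (SE 0.24) and Cdh5 at 1.58 (SE 0.34). All 4 entered the tests only through tissue arrays. Cldn5 was at 6.83, 11.7, 11.2, 29.0 and 12.8 in cortical thymocytes, below its lowest cortex array at 82.9. Icam1, at 0.95 (SE 0.12, adjusted p = 4.8e-08), passed the test but not the required fold.

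Pecam1 ran the other way. Its signals were 715, 772, 889, 776 and 758 in cortical thymocytes and 783, 702, 1209, 866 and 876 in medullary thymocytes, the highest of the 7 groups. Whole cortex lay below cortical thymocytes with a log2 difference of -0.73 (SE 0.18, adjusted p = 0.0014) and whole medulla below medullary thymocytes by -0.58 (SE 0.18, adjusted p = 0.0074). Both passed the p threshold and neither reached the fold.

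Along the cortex, from the capsule to the border with the medulla, 3 genes were called higher in perimedullary than in subcapsular cortex and 0 lower, against 4.61% of all genes called, 2.94% higher and 1.66% lower. Vwf was at 174, 159 and 127 in perimedullary cortex, at 53.6, 59.2 and 41.3 in central cortex and at 24.8, 21.2 and 22.5 in subcapsular cortex. The 3 regions did not overlap, and the difference between the outer 2 was 1.87 on the log2 scale (SE 0.36, adjusted p = 0.00024). Selp was at 123, 70.9 and 118 in perimedullary cortex, at 70.0, 32.8 and 69.3 in central cortex and at 14.8, 36.3 and 19.3 in subcapsular cortex. Its perimedullary arrays lay above all others of the cortex parts, with a log2 difference from subcapsular cortex of 1.39 (SE 0.34, adjusted p = 0.0031). Vwf and Selp exceeded the array median in 0 of 3 subcapsular and 0 of 3 central arrays. Both entered the tests only through groups in which they are high, so the count of 3 beside the share over all genes is a description.

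Icam1 was at 2064, 1578 and 1733 in perimedullary cortex, at 1036, 1033 and 902 in central cortex and at 971, 738 and 916 in subcapsular cortex. The log2 fold change of perimedullary over subcapsular cortex was 1.01 (SE 0.17, adjusted p = 2.7e-05), at the edge of the required fold: it was 0.95 with quantile normalization, 0.90 without subcapsular array 2 and 0.91 without perimedullary array 1. Vcam1 was at 5570, 4519 and 4879 in perimedullary and at 3263, 3022 and 3139 in subcapsular cortex. Its groups did not overlap either, and its log2 difference of 0.66 (SE 0.15, adjusted p = 0.0022) stayed below the fold.

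Plvap, Kdr, Cldn5, Eng, Cdh5 and Pecam1 differed between perimedullary and subcapsular cortex by 0.54, 0.47, 0.30, 0.09, -0.25 and 0.14, with adjusted p-values from 0.32 to 0.91. Against central cortex, Icam1 was higher in perimedullary cortex by 0.83 (SE 0.17, adjusted p = 0.0018), below the fold, and Vwf by 1.21 (SE 0.36, adjusted p = 0.066). Vwf was called at the same difference when only the 2 groups compared were fitted (adjusted p = 0.0079), with array weights (adjusted p = 0.00064) and without the wide arrays (adjusted p = 0.0067).

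**Figure D3:**
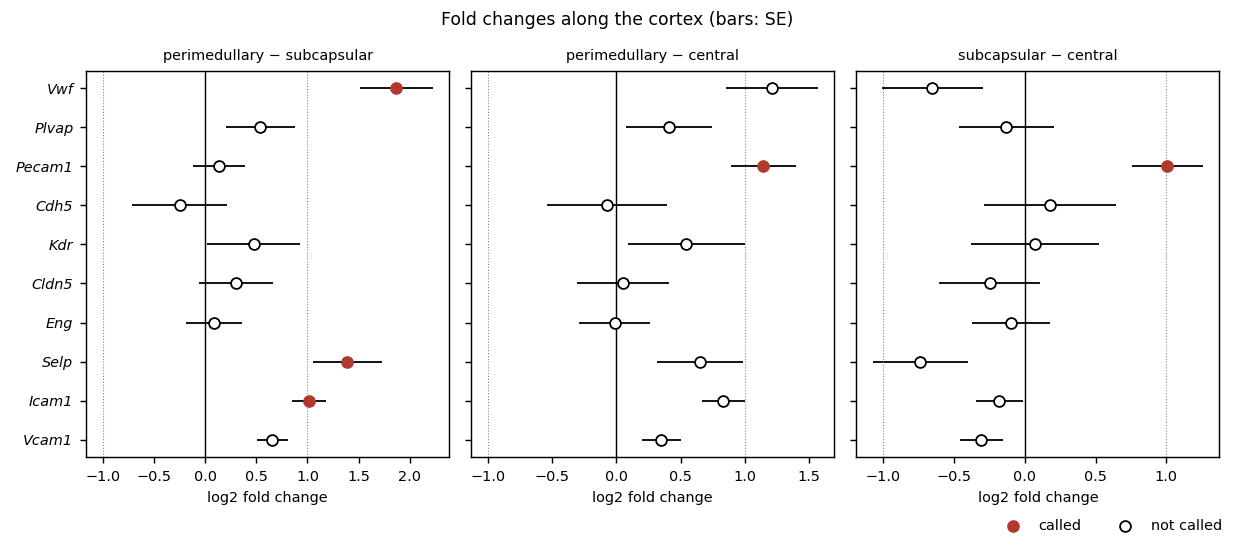
Log2 fold changes of the 10 genes (points, bars: SE of the limma fit) between the 3 dissected parts of the cortex, filled where called, with dotted lines at 1 and -1 and an axis range set per panel. Vwf, Selp and Icam1 were higher in perimedullary than in subcapsular cortex, and Pecam1 was lower in central cortex than in both other parts. Vwf, Selp and Pecam1 exceeded the array median in 0 of 3 subcapsular and 0 of 3 central arrays.

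Pecam1 was the 1 gene of the 10 called within the cortex in both comparisons with its central part. It was at 28.5, 16.0 and 15.2 there, at 74.7, 58.8 and 64.2 in subcapsular cortex and at 49.5, 126 and 63.4 in perimedullary cortex. These signals exceeded the array median in 0 of 3 central, 0 of 3 subcapsular and 1 of 3 perimedullary arrays. The central mean, 19.9, lay below the offset of 26.2, so both calls compare signals near the floor. Pecam1 passed the filter through whole compartments and thymocytes. Perimedullary cortex was higher by 1.14 (SE 0.25, adjusted p = 0.0055), where 1.38% of all genes were called, 1.34% higher and 0.0371% lower, and subcapsular cortex by 1.01 (SE 0.25, adjusted p = 0.0093), where 1.32% were called, 0.876% higher and 0.446% lower. The first call was lost without perimedullary array 2 (0.85, adjusted p = 0.11) and when only the 2 groups compared were fitted (1.14, adjusted p = 0.058), and the second without subcapsular array 1 (0.94), central array 2 (0.95) or central array 3 (0.93).

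All of these Pecam1 signals lay far below its 475 ± 121 in whole cortex. The mean of the 3 parts was therefore set against whole cortex, a comparison added after the values were seen. Pecam1 was lower in the parts by -2.69 (SE 0.16, adjusted p = 1.1e-16) and was the only one of the 10 genes called in its representative probe set, where 14.3% of all genes were called, 7.06% lower and 7.25% higher. Other probe sets, not tested here, also split: 1 of Vcam1 ran from 259 to 474 in the parts and from 1092 to 1739 in whole cortex, and the second of Eng from 91.9 to 218 in the parts and from 21.8 to 83.2 in whole cortex. The 2 whole cortex arrays without a wide upper tail, 6 and 7, were at 450.4 and 424, the third and second lowest of the 7, and the part of the upper tail in this difference was not tested. The call of Pecam1 at 2.57 (SE 0.21, adjusted p = 1.5e-12) in whole medulla over perimedullary cortex crosses the same 2 sets of arrays, dissected parts and whole compartments. For the other 9 genes the difference between the parts and whole cortex ran from -0.34 for Cdh5 to 0.84 for Plvap. Plvap (adjusted p = 0.00068), Icam1 at 0.82 (adjusted p = 1.4e-08) and Vwf at 0.59 (adjusted p = 0.021) passed limma's p threshold but not the fold. Mean Icam1 signals were 875, 990 and 1792 in subcapsular, central and perimedullary cortex, all above the 656 of whole cortex.

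In whole medulla against perimedullary cortex, 5 of the 10 genes were called higher and 0 lower, against 29.3% of all genes called, 20.2% higher and 9.09% lower. Under quantile normalization these calls over all genes split into 2117 higher and 1522 lower, instead of 2721 and 1224. Besides Pecam1 they were Icam1 at 1.43 (SE 0.14, adjusted p = 7.9e-11), Eng at 1.35 (SE 0.23, adjusted p = 6.3e-06), Selp at 1.13 (SE 0.28, adjusted p = 0.00084) and Cdh5 at 1.12 (SE 0.39, adjusted p = 0.014). The second Eng probe set gave 0.42 (SE 0.28), and with the mean of both probe sets Eng was at 0.89 and not called. Cdh5 lost its call with the smaller offset (1.32, adjusted p = 0.053). Selp and Cdh5 lost their call under quantile normalization (0.76 and 0.65), Selp also without perimedullary array 2 (0.93), and Cdh5 also without medulla array 2 (0.98) and without the wide arrays (0.55, adjusted p = 0.17).

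Vwf at 0.98 (SE 0.30, adjusted p = 0.0056) and Plvap at 0.88 (SE 0.28, adjusted p = 0.0077) fell just short of the fold and were called without the wide arrays, at 1.31 and 1.18. For every gene this comparison crosses dissected parts and whole compartments, whose upper tails differ also without the wide arrays. The signal exceeded by 0.1% of probe sets was 34700 and 33358 in medulla arrays 6 and 7. In perimedullary cortex it was 18339, 19984 and 18446. The part of this in the calls was not tested. Vcam1 differed by -0.10 (SE 0.13) in its representative probe set and by 1.56 (SE 0.25, adjusted p = 2.4e-06) in another, so its probe sets disagreed. The third gave 0.36 (SE 0.26).

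Ordered by mean log2 signal over the 7 groups, whole medulla stood first for Vwf, Plvap, Cdh5, Kdr, Cldn5, Selp and Icam1. For Vwf, Plvap, Selp and Icam1 its arrays did not overlap those of the next group, which was perimedullary cortex, or medullary thymocytes for Selp. For Cdh5, Kdr and Cldn5 neighbours in the order overlapped throughout. In its representative probe set Eng was highest in medullary thymocytes and whole medulla, which overlapped. It then dropped without overlap to 186 ± 18.2 in central cortex, and the 5 lowest groups overlapped from one to the next. The second Eng probe set had its highest mean signal in whole medulla (192 ± 36.7). Medullary thymocytes (152 ± 30.8) and perimedullary cortex (143 ± 66.6) came next, and both overlapped whole medulla. In its representative probe set Vcam1 had its highest mean in perimedullary cortex (4989 ± 534), which overlapped whole medulla, and its 5 tissue groups were separated from both thymocyte groups, at 10.9 ± 8.55 and 4.77 ± 1.48. Its other probe sets ordered the tissues otherwise: 1 was highest in whole cortex (1358 ± 252) and the other in whole medulla (469 ± 90.3). For Vwf, Plvap, Cdh5, Kdr, Cldn5 and Vcam1, both thymocyte groups stood last. These orders set dissected cortex parts beside whole compartments, whose arrays differ in upper tail.

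Within groups, most pairs of these genes showed little shared variation between arrays. After each group's mean was removed, the 45 pairs of genes had a median Pearson r of -0.004 over the 33 arrays, from -0.48 for Cdh5 and Selp to 0.50 for Vwf and Kdr. Over the 14 arrays of whole cortex and whole medulla the median was 0.006, from -0.52 to 0.67, with 4 of 45 pairs over 0.5. These points share array scaling, and the values are a description.

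Over all 33 arrays, the genes with the pattern most like each member were picked by Pearson r of log2 signals. They were Fcgbp (0.948) and Tspan33 (0.943) for Vwf, Shtn1 (0.963) for Plvap, Prr13 (0.974) and Itm2c (0.967) for Icam1, Ms4a6c (0.934) for Selp, Anxa6 (0.932) for Eng and Tfec (0.914) for Kdr. For Cldn5 they were Igf1 (0.919) and Aplnr (0.914), the latter the apelin receptor of endothelium, and for Vcam1 Hpgd (0.994) and Krt8 (0.992), a keratin of cortical epithelium. Pecam1 was nearest to Ftsj3 (0.954) and Cdh5 to Adamts1 (0.819), the lowest of these values. With 7 groups of unequal levels, such r mainly describe the order of the groups.

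Eng, Selp and Icam1 were the 3 genes called both between the tissues and between the thymocytes, and a window of 250 bases before the transcription start of each is shown for that reason. Within groups their deviations did not run together in every pair, with Pearson r over the 33 arrays of 0.36 for Eng and Icam1, -0.04 for Eng and Selp and -0.09 for Selp and Icam1. Sequences are from RefSeq on GRCm38.p6, written 5′ to 3′ on the strand of the gene, and 5 of the 10 genes had an entry: Selp, Eng, Kdr, Icam1 and Cldn5. Capitals mark matches, on either strand, to the kappa-B-like motif GGNNNTTCC, the Ets motif AGGAAG, the GATA motif AGATAA or the AP-1 motif TGANTCA.
Icam1, chr9:21015690-21015939, + strand: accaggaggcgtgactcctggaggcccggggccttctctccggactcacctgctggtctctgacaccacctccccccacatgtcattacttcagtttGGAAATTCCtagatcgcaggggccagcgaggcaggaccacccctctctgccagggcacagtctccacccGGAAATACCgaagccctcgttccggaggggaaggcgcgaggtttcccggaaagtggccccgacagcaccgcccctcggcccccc
Selp, chr1:164115014-164115263, + strand: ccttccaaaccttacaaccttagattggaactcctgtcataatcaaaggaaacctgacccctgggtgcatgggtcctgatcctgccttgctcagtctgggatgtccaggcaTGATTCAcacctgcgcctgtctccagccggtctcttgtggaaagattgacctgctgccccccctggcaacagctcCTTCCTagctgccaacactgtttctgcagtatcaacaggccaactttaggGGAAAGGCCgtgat
Eng, chr2:32646345-32646594, + strand: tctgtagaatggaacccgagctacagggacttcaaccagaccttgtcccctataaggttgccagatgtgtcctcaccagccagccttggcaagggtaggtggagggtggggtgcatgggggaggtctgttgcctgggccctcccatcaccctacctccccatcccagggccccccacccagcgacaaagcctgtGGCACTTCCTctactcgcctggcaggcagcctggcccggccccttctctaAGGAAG
Counting the last base before the start as -1, the Icam1 window held 2 kappa-B-like matches, at -153 to -145 and at -84 to -76. The Selp window held 1 kappa-B-like match at -14 to -6, 1 Ets match at -64 to -59 and 1 AP-1 match at -139 to -133. The Eng window held a kappa-B-like match at -56 to -48 that overlaps an Ets match at -52 to -47, and a second Ets match at -6 to -1. Of 32851 RefSeq promoters cut to the same length, 15.7% held the kappa-B-like motif, 29.5% the Ets, 9.99% the GATA and 6.75% the AP-1 motif. The windows of Kdr and Cldn5 held none of these letters. A match is a description and not a site in use.

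Other genes of vessels and of the pathways around them were counted in lists. In whole medulla against whole cortex, 7 of 23 other endothelial genes were called higher and 0 lower, with a median log2 fold change of 0.71. The lipid receptor S1pr1, which emigrating T cells also carry, led at 2.65 (SE 0.16), and it was at 4.46 (SE 0.19) in medullary over cortical thymocytes. Ecscr, an endothelial surface molecule, followed at 2.19 (SE 0.14), with 524 ± 71.8 against 94.4 ± 13.6, then the VEGF receptor Flt1 at 1.39 (SE 0.28) and the transcription factor Sox7 at 1.29 (SE 0.20). Ecscr was at 47.7 ± 5.73 in cortical and 50.2 ± 11.8 in medullary thymocytes.

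Of 7 arterial genes, 4 were called higher and 0 lower: the connexin Gja4 at 3.25 (SE 0.30), Bmx at 2.53 (SE 0.28), the Eph ligand Efnb2 at 2.08 (SE 0.19) and Sox17 at 1.27 (SE 0.20). Gja4 was at 519 ± 64.5 in medulla and 32.5 ± 16.5 in cortex. Of 5 venous and postcapillary genes, 2 were called higher, Nrp2 at 1.49 (SE 0.25) and Nr2f2 at 1.29 (SE 0.29). Of 3 lymphatic genes tested, Pdpn and Reln were called higher, at 2.58 (SE 0.24) and 1.73 (SE 0.23), and Pdpn is also a gene of stroma and epithelium.

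Among 7 VEGF and angiopoietin genes, 4 were called higher and 1 lower. The higher ones included Pgf, a ligand of Flt1, at 2.45 (SE 0.23), Vegfc at 1.26 (SE 0.26) and the Tie2 ligand Angpt2 at 1.14 (SE 0.23). Angpt1, the other main Tie2 ligand, was lower at -1.69 (SE 0.14), with 151 ± 31.3 in medulla and 549 ± 131 in cortex, and also in medullary against cortical thymocytes at -2.41 (SE 0.16). Among 8 other vascular adhesion genes, F11r at 2.82 (SE 0.13) and Madcam1 at 1.62 (SE 0.25) were higher and Icam2 was lower at -1.13 (SE 0.11). F11r encodes a junction molecule that epithelium also carries.

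Of the genes for leukocyte adhesion receptors (the counter-receptor list), 3 of 9 were called higher and 0 lower in medulla. Over all genes the shares were 18.7% higher and 5.39% lower. The 3 were the integrin chains Itgae at 3.97 (SE 0.13) and Itgb7 at 3.09 (SE 0.14), and Cd44 at 2.56 (SE 0.11). Not every receptor of this list binds the adhesion molecules described above. Of 13 genes of TNF, lymphotoxin and NF-kB signalling, 8 were higher and 0 lower, led by Relb at 3.42 (SE 0.14), Lta at 3.21 (SE 0.24), Nfkb2 at 3.09 (SE 0.24) and Traf1 at 3.05 (SE 0.14). In perimedullary over subcapsular cortex 5 of these 13 were called higher, against 2.94% of all genes. Lta at 1.71 (SE 0.36) and Traf1 at 1.54 (SE 0.21) were among them. Between the thymocyte groups 8 of the 13 were called higher, against 7.69% of all genes.

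**Figure D4:**
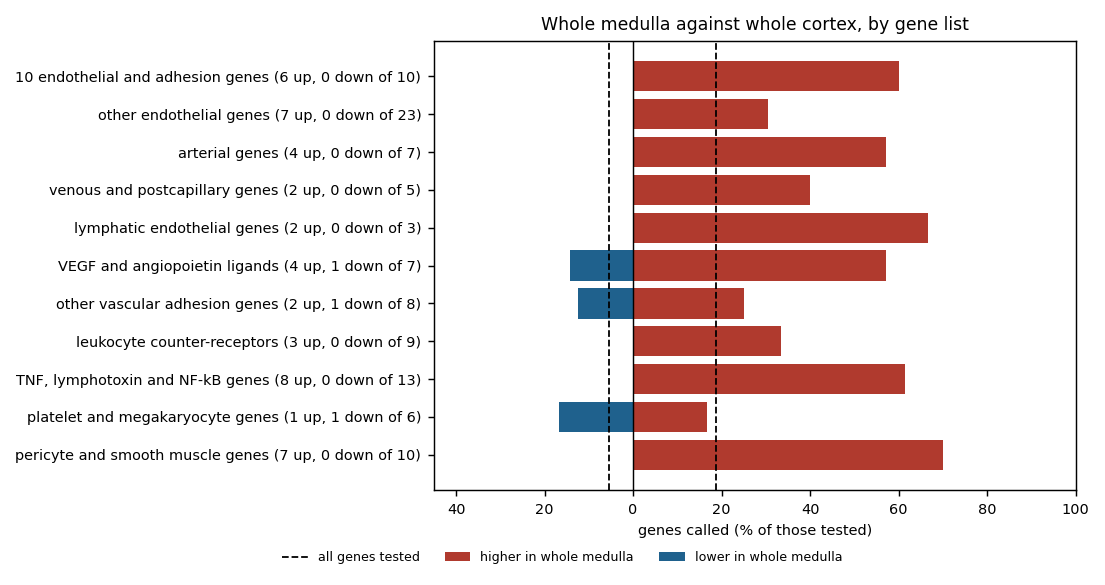
Share of the genes tested in each list that were called higher (right) or lower (left) in whole medulla than in whole cortex, in percent of those tested, with dashed lines at the shares over all genes, 18.7% and 5.39%. The 10 genes had 6 called higher, beside 7 of 23 other endothelial genes and 7 of 10 pericyte and smooth muscle genes.

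Markers of other cells moved with the medullary calls. Of 10 pericyte and smooth muscle genes, 7 were called higher in medulla, led by Rgs5 at 4.21 (SE 0.16), and their summed signal ran from 17782 to 21543 in medulla against 2121 to 3647 in cortex. Of 8 dendritic cell genes 7 were called higher, with sums from 28151 to 46984 against 3708 to 5247, and 4 of 10 macrophage genes were higher and 2 lower, with sums from 28742 to 37766 against 9762 to 13505. The sum of the 23 other endothelial genes ran from 6461 to 8016 in medulla and from 4908 to 6014 in cortex. Also higher were 7 of 8 medullary epithelial and 5 of 8 mesenchymal genes, while 5 of 8 cortical epithelial and 6 of 9 thymocyte genes were lower. From subcapsular to perimedullary cortex, mean sums went from 4084 ± 82.8 to 4029 ± 143 for other endothelial genes and from 1634 ± 90.4 to 1418 ± 132 for arterial genes. Those of venous and postcapillary genes went from 754 ± 82.3 to 610 ± 46.6. Sums rose from 607 ± 49.5 to 680 ± 67.6 for lymphatic genes and from 9037 ± 801 to 20048 ± 1148 for macrophage genes. Each sum adds probe sets of unlike brightness, so a few bright genes can set it. The part of these cells in the levels of the 10 genes was not tested.

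Vwf and Selp are also genes of platelets. Of 6 platelet and megakaryocyte genes tested, Itgb3 was higher in medulla at 3.90 (SE 0.22) and Clec1b lower at -1.24 (SE 0.23), and Pf4, a platelet chemokine, had a difference of 0.57 (SE 0.23, adjusted p = 0.032). Summed signals of the list ran from 2037 to 2782 in medulla, from 805 to 1369 in cortex, from 1911 to 2272 in perimedullary cortex and from 927 to 1112 in subcapsular cortex. They ran from 2152 to 2960 in medullary thymocytes, where Vwf was at 10.9 ± 14.6 and Itgb3 at 1997 ± 358. Of 7 erythroid genes only Alas2 was tested, at 0.15 (SE 0.32). Their part in the result was not tested.

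In the sorted cells, Ptprb, a phosphatase of endothelium, was at 27.6 ± 7.44 in cortical and 25.4 ± 8.80 in medullary thymocytes, against 189 ± 75.8 in whole cortex and 337 ± 56.8 in whole medulla. Cav1, a caveolar protein, was at 41.4 ± 23.2 and 24.4 ± 21.6 in the thymocyte groups. Each gene's lowest 2 group means were those of the thymocytes. Between the thymocyte groups, 7.69% of all genes were called higher and 6.31% lower. Of the 23 other endothelial genes, S1pr1 was called higher and Erg lower, 1 each. The sum of the list, which includes S1pr1, ran from 3302 to 4278 in cortical and from 4663 to 7185 in medullary thymocytes. Its means there were 3710 ± 372 and 5955 ± 967. In tissue they were 3705 ± 120 in central cortex, 5358 ± 425 in whole cortex and 7513 ± 545 in whole medulla. The low thymocyte levels of Ptprb and Cav1 therefore do not stand for the list as a whole. Sums of the macrophage list ran from 413 to 502 and from 467 to 558, where 0 of 10 genes were called, and those of the dendritic cell list from 117 to 343 and from 512 to 836, where 2 of 8 were called higher. The part of these cells in the thymocyte levels of Eng, Selp and Icam1 was not tested.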

How the data were processed

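RNA of 33 samples, primed with oligo-dT and labelled as biotinylated cRNA per the labels' protocols, was measured on 1-colour Affymetrix arrays. The deposited values are linear signal intensities, made by the authors with MAS5 in Affymetrix Expression Console 1.0 per the submitters' processing notes. The scaling target is not given in the sources used here. Arrays have no read depth, so their number limits the precision.

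From these, log2(signal + 26.2) was computed, the offset being a typical lower-quartile signal, taken as the median of the arrays' 25th percentiles. Fold changes on this scale understate the change of low genes. Of 45037 probe sets, 34945 have 1 gene symbol, 932 several and 9160 none in the platform annotation. Probe sets above the array median in at least 3 arrays were kept, and the highest-mean probe set with 1 symbol stood for a gene. All comparisons came from 1 limma 3.58.1 fit (R 4.3.3) of 7 group means with 26 residual degrees of freedom and a trended prior, with Benjamini-Hochberg adjustment over 13463 genes. The fit was tested on simulated data. Python 3.11.15 with pandas 2.3.3 and numpy 2.4.6 made the summaries.

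The 10 genes and the 17 other lists were chosen with earlier results of these data known. Named were the 10 genes, up to 4 called genes of each list with the largest absolute change in a comparison, and up to 3 nearest genes by Pearson r. Outside this rule Pf4, Alas2, Aire and Psmb11 were named. Alternatives were a smaller offset, quantile normalization, other filters and probe set rules, fits of only the groups compared, a replicate block, array weights, arrays split by upper tail, and leaving out each array.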

Additional observations from a re-analysis of the deposited data

Results flagged for a closer look

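In 40 sets of a gene and a group of 4 to 10 arrays, the gap of the highest or lowest array to its neighbour was compared with the range of the group, and 4 arrays stood apart. Chance marks about 1 in 20 such groups. Vwf in medullary thymocytes was highest in array 1 at 36.7, where the next array was at 8.29 (gap over range 0.814). Cdh5 in whole cortex was lowest in array 5 at 4.00, where the next was at 99.6 (gap over range 0.668). Cdh5 in cortical thymocytes was highest in array 1 at 52.2, where the next was at 11.8 (gap over range 0.831). Cldn5 in cortical thymocytes was highest in array 4 at 29.0, where the next was at 12.8 (gap over range 0.733).

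The difference between medulla and cortex was not the same in tissue and in sorted thymocytes for 3 genes, by the interaction in the limma fit. The interaction was 2.63 for Vwf, 1.59 for Plvap and 1.42 for Icam1, each positive, so that the tissue difference exceeded the thymocyte difference. For Vwf and Plvap, which were near the floor in both thymocyte groups, this says little beyond the tissue difference.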

How the results depend on the processing

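Of all values recomputed for the 10 genes, called differences kept direction and call in 721 cases and direction without the call in 21, and 0 reversed. Differences not called stayed so in 1042 cases, gained the call in 24 and changed sign in 49. The stricter filter, which leaves 5 of the genes tested, called 3 in whole medulla over whole cortex instead of 6, 3 over perimedullary cortex instead of 5, 1 in perimedullary over subcapsular cortex instead of 3, 2 in whole cortex over cortical thymocytes instead of 4 and 3 in whole medulla over medullary thymocytes instead of 8. Probe sets with the plain suffix leave 8 genes, without Eng and Pecam1, and called 3 in whole medulla over perimedullary cortex and 0 in perimedullary or subcapsular over central cortex. Quantile normalization called 3 in whole medulla over perimedullary cortex, and in whole medulla over whole cortex it moved the median of all genes from 0.11 to -0.02. Array weights called 2 in perimedullary and 0 in subcapsular over central cortex, and arrays without a wide tail 2 in perimedullary over central cortex. Leaving out single arrays gave 0 to 1 in each comparison with central cortex, 6 to 6 in whole medulla over whole cortex, 4 to 6 over perimedullary cortex, 2 to 3 in perimedullary over subcapsular cortex and 7 to 8 in whole medulla over medullary thymocytes. Apart from the filter and suffix settings, which test fewer genes, the cause was not tested.

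Signs changed under quantile normalization for Cldn5 in medulla over cortex (-0.13), Vcam1 over perimedullary cortex (0.031), Eng (-0.080) and Pecam1 (-0.00023) in perimedullary over subcapsular cortex, Cldn5 in perimedullary over central cortex (-0.059), and the interactions of Pecam1 (-0.048), Cdh5 (-0.23) and Vcam1 (0.16). With the mean of probe sets they changed for Vcam1 in medulla over perimedullary cortex (0.61), Eng in perimedullary over central cortex (0.093), Vcam1 between thymocytes (-0.062) and its interaction (0.16). Without wide arrays they changed for Cdh5 in medulla over cortex (-0.10), Vcam1 (0.17) and Kdr (-0.14) over perimedullary cortex, Eng over medullary thymocytes (0.0013) and the interactions of Cldn5 (0.66), Pecam1 (-0.14), Cdh5 (-1.21) and Vcam1 (0.49). Array weights turned Eng in perimedullary over central cortex (0.021) and the interactions of Cdh5 (-0.20) and Vcam1 (0.043), and the smaller offset that of Cdh5 (-0.27). With single arrays left out, perimedullary over subcapsular cortex ran from -0.025 to 0.23 for Eng and from -0.16 to 0.35 for Pecam1. Perimedullary over central cortex ran from -0.081 to 0.087 for Eng, -0.14 to 0.18 for Cldn5 and -0.26 to 0.15 for Cdh5. Subcapsular over central cortex ran from -0.24 to 0.012 for Eng, -0.010 to 0.39 for Cdh5 and -0.14 to 0.18 for Kdr. Vwf between thymocytes ran from -0.25 to 0.11, and the interactions from -0.30 to 0.18 for Cdh5 and -0.11 to 0.070 for Vcam1.

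Deviations of same-numbered arrays had a median r of 0.012 over 77 pairs, against -0.003 over 380 others, with 5 and 17 pairs over 0.1. Of the 33 arrays, 11 matched best with their own number. The count to be had by chance was not computed, so these values do not settle whether the numbers pair the arrays. With the replicate block, 6 genes were called in medulla over cortex and 3236 of all genes, as without it. In medulla over perimedullary cortex the block lost Selp (0.999) and gained Vwf (1.01), and Kdr was called in whole cortex over cortical thymocytes (1.25). No value within wide arrays alone was possible for comparisons with cortical thymocytes or cortex parts, which have none. Counts over all genes moved past 1.5 times as follows. With the replicate block, lower calls rose from 205 to 373 in cortex over cortical thymocytes and from 166 to 271 in medulla over medullary thymocytes. The stricter filter called 2010 in medulla over cortex instead of 3236, 912 in cortex over cortical thymocytes instead of 1503, 1371 in medulla over medullary thymocytes instead of 2788 and 1086 interactions instead of 2022. Each probe set as its own feature gave 5120, 2997 and 4587 for the first 3 of these, 7321 in medulla over perimedullary cortex instead of 3945, 980 in perimedullary over subcapsular cortex instead of 620 and 3233 between thymocytes instead of 1885.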
